A study of Rattus norvegicus with 9 samples.

Results

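The genes described here encode 9 receptors for extracellular nucleotides, the ATP-gated channels P2rx2, P2rx3, P2rx4, P2rx5, P2rx6 and P2rx7 and the G protein-coupled receptors P2ry1, P2ry2 and P2ry12. They were selected by symbol from a table of 30446 genes. Each symbol matched 1 row, and all 9 passed the low-count filter that left 16627 genes for testing. The other nucleotide receptors in the table (P2rx1, P2ry4, P2ry6, P2ry10, P2ry13 and P2ry14) are reported with the genes of ATP release and breakdown. RNA came from dorsal root ganglia, which hold the cell bodies of sensory neurons with their satellite glia, Schwann cells and resident macrophages. Ganglia of both sides from T12 to L6 were taken from male Sprague-Dawley rats, with 3 libraries from each of 3 groups: naive, sham-operated and spinal cord injured (SCI). All 9 libraries carry the label of 30 days after injury, the naive ones included. The series describes the 3 libraries of a group as biological replicates. The labels do not give the rats' age, the kind of cord injury, or whether a library holds 1 animal or a pool.

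P2X receptors are trimeric cation channels that open when ATP binds, and P2Y receptors signal through G proteins in response to ATP, ADP or uridine nucleotides. In sensory ganglia, P2X3 homomers and P2X2/P2X3 heteromers of nociceptors carry the fast response to ATP released by damaged or stretched tissue. P2X4, P2X7 and P2Y12 are best known from macrophages, microglia and glia, and P2Y1 and P2Y2 couple to phospholipase C and calcium release in neurons and glia.

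The libraries held 16724878 to 32060538 counts each. The CPM used here scale a gene's counts to its library's size, so 1 CPM rests on 16.7 to 32.1 counts before TMM scaling. The TMM factors that adjust this size ran from 0.9717 to 1.011. Along the first principal component (59.3% of the variance in log2 CPM) the naive libraries lay between -43.5 and -41.6 and the sham and SCI libraries between 14.2 and 25.7. On the second (11.2%), sham 1 and sham 3 lay at the ends, at -25.9 and 26.2. The labels name no batch, so a difference from naive by operation or injury and one by a batch holding the naive libraries cannot be told apart. Below, rose and fell mean only a higher or lower level than in naive. All 10 listed markers of sensory neurons were measured, with summed levels of 10500 to 10900 CPM in naive, 11200 to 14700 in sham and 11500 to 12800 in SCI. Of these 10, Rbfox3, Uchl1 and Prph were higher in SCI than in naive and Elavl4 and Syt1 lower, and in sham Pou4f1 was higher as well. Of all genes tested, 48.5% were called in SCI against naive (23.9% higher, 24.6% lower) and 50.6% in sham against naive (24.7% higher, 25.9% lower). The part of the differences in neuronal markers in the receptor values was not tested. In whole ganglia, fewer cells of a type and less RNA per cell cannot be told apart.

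The receptor genes fell into 3 patterns. P2rx7, P2ry1 and P2ry2 were lower in both operated groups (sham and SCI) than in naive ganglia, P2rx4 was higher in both, and the levels of P2rx2, P2rx3, P2rx5, P2rx6 and P2ry12 did not pass the test in any comparison. Between SCI and sham none of the 9 passed. P2rx4 and P2rx7, which moved in opposite directions, are neighbours on chromosome 12. The promoter windows of the 4 genes that passed are shown so that they can be compared; each runs from 250 bases before to 50 bases after the start in RefSeq (build GRCr8), 5′ to 3′ on the gene's strand, with matches to the GC box GGGCGG on either strand in capitals.
P2rx4, chr12:39523040-39523339, - strand: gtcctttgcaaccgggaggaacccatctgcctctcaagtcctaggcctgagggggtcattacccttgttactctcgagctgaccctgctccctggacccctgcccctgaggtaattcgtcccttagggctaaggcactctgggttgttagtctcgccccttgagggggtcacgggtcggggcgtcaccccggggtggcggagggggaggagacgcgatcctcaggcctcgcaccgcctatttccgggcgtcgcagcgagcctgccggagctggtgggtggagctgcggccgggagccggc
P2rx7, chr12:39594873-39595172, - strand: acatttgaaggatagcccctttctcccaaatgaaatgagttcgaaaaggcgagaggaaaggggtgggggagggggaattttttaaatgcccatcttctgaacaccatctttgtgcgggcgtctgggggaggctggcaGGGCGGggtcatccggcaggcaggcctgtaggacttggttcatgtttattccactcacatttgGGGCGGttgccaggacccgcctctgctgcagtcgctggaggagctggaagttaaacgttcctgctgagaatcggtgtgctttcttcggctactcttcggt
P2ry1, chr2:147391411-147391710, + strand: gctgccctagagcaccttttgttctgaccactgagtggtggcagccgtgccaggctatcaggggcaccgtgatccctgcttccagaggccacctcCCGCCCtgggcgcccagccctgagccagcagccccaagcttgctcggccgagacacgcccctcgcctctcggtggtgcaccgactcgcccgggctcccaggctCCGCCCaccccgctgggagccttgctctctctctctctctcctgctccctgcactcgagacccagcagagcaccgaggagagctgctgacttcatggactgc
P2ry2, chr1:164779439-164779738, - strand: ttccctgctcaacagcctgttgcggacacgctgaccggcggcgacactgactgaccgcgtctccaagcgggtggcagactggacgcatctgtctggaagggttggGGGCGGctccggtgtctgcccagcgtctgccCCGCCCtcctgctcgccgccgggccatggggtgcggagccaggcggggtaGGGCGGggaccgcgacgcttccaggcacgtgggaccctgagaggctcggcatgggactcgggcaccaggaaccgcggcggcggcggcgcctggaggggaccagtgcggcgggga

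Of the 9 genes, 6 matched the RefSeq promoter table, with 7 windows since P2rx3 has a pair of starts. The GC box was found 3 times in the P2ry2 window, 2 times in the P2ry1 window and 2 times in the P2rx7 window. The P2rx4 window held none. Among receptors that did not pass, the P2rx6 window held 0 and the windows of P2rx3 held 0 and 1. Among all 33469 windows of this length, 33.1% held at least 1. GC content was 73.0% for P2ry2, 67.7% for P2ry1, 66.7% for P2rx4 and 54.7% for P2rx7, against a median of 51.7% over all windows. The AP-1 motif TGANTCA, the TATA motif TATAAA and the cAMP response element TGACGTCA, each searched on both strands, were found in none of the 4 (7.33%, 14.2% and 1.83% of all windows). The E-box CANNTG was found 3 times for P2rx7, 2 times for P2ry2, 1 time for P2rx4 and 0 times for P2ry1, and in 72.1% of all windows. These are matches of letters and not binding sites.

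**Figure D1:**
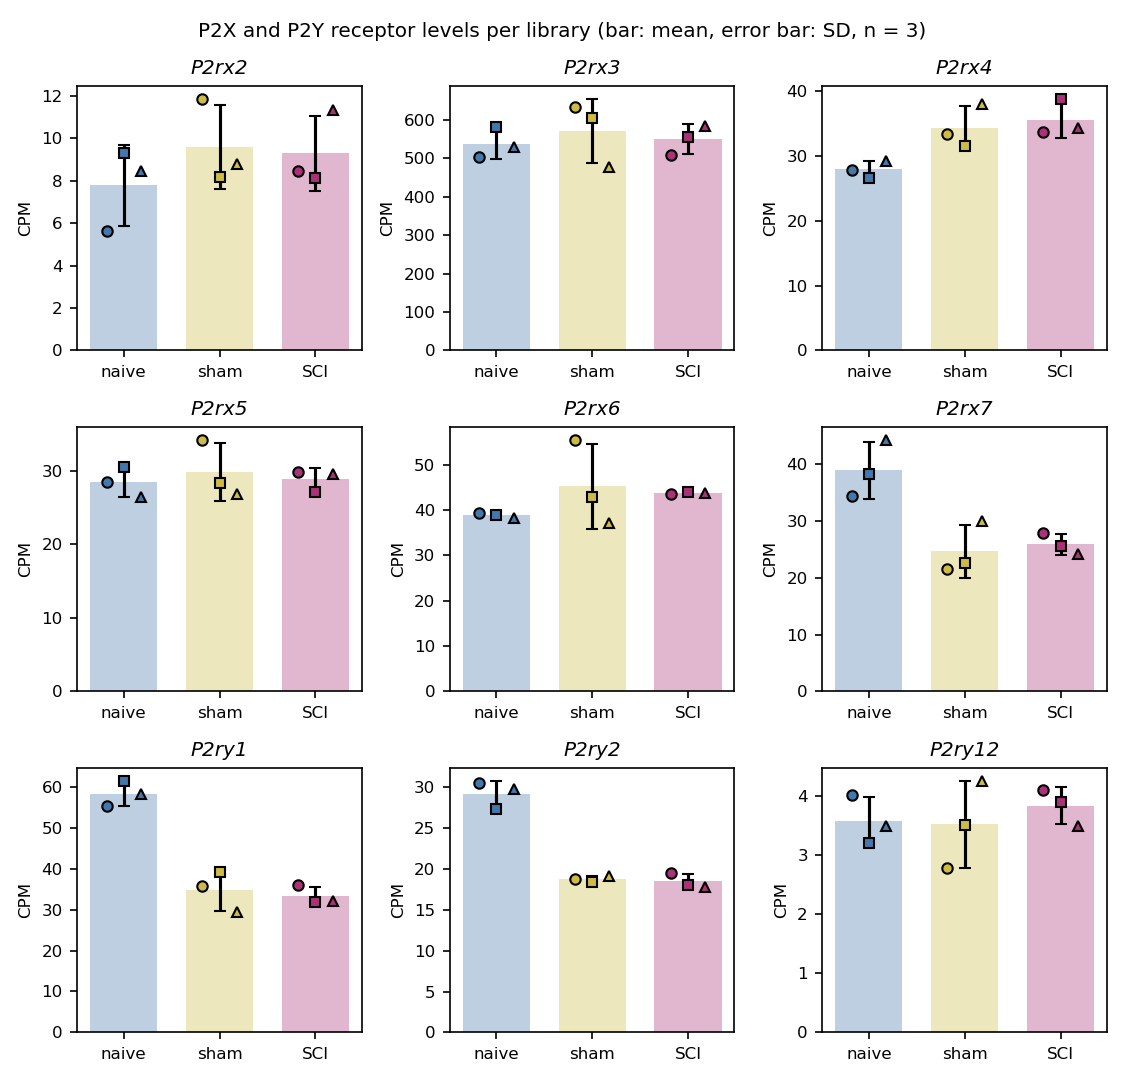
Levels of the 9 receptor genes in CPM on the y axis, each panel with its own scale starting at 0, for naive, sham and SCI libraries on the x axis (circle, square and triangle are replicates 1, 2 and 3, bars are means, error bars are SD, n = 3). P2rx7, P2ry1 and P2ry2 have all 3 naive libraries above the 6 others, and P2rx4 has them below.

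P2rx3, the channel that marks many nonpeptidergic nociceptors, stood at 503, 581 and 530.2 CPM in naive libraries 1 to 3. It stood at 634, 607 and 477 CPM in sham 1 to 3, and at 509.5, 557 and 586 CPM in SCI 1 to 3. The groups overlapped, with the highest and the lowest library both in sham. The log2 change was 0.03 for SCI against naive (SE 0.10, edgeR adjusted p = 0.814), 0.09 for sham against naive (SE 0.10, edgeR adjusted p = 0.493) and -0.06 for SCI against sham (SE 0.10, edgeR adjusted p = 1). The 95% interval of the last ran from -0.28 to 0.17 on the log2 scale. The sham against naive change was 0.003 without sham 1 (edgeR adjusted p = 0.982) and passed without sham 3 (0.21, edgeR adjusted p = 0.0318). Ssrp1, a histone chaperone gene that overlaps P2rx3 in the RefSeq table, was higher in SCI than in naive (log2 change 0.20, edgeR adjusted p = 0.0168). The genes overlapping P2rx2 and P2rx6 there, Lrcol1 and Lrrc74b, had few counts, with Lrcol1 under the low-count filter.

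P2rx2, whose subunit joins P2X3 in heteromers that desensitize slowly, stood at 5.65, 9.29 and 8.45 CPM in naive, 11.9, 8.15 and 8.78 in sham, and 8.44, 8.11 and 11.3 in SCI libraries 1 to 3. Naive 1 was the lowest library and sham 1 the highest, and the groups overlapped. Log2 changes were 0.24 for SCI against naive (SE 0.19, edgeR adjusted p = 0.315), 0.31 for sham against naive (SE 0.19, edgeR adjusted p = 0.200) and -0.07 for SCI against sham (95% interval -0.49 to 0.35). With 1 library left out the first ran from 0.06 (without naive 1) to 0.39 (without naive 2), and that of sham from 0.11 (without sham 1) to 0.46 (without naive 2). The count ratio of P2rx3 to P2rx2 within a library, which does not depend on scaling, averaged 71.5 ± 15.3 (naive), 60.7 ± 11.9 (sham) and 60.3 ± 8.49 (SCI, all SD with n = 3). The groups overlapped, and exact two-sided permutation tests gave p = 0.4 for SCI against naive, p = 0.5 for sham against naive and p = 1 for SCI against sham, where 0.1 is the smallest p that 3 against 3 libraries allow. Both ratios reported here were chosen after the values were seen.

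Of 13 listed genes of nonpeptidergic nociceptors, 5 were lower in SCI than in naive and none higher. Of all genes tested, 24.6% were lower and 23.9% higher (48.5% called). In sham 7 were lower and none higher, where 25.9% of all genes were lower and 24.7% higher (50.6% called). The summed level of the 13 genes ran from 1560 to 1700 CPM in naive, 1000 to 1300 in sham and 1070 to 1200 in SCI. None was at 0. Most of this sum was Ret and Scn11a, with means of 744 and 515 CPM in naive, so it mainly follows these genes. Ret, the GDNF receptor kinase, had a log2 change of -0.39 in SCI against naive (edgeR adjusted p = 0.00935), and Scn11a, the sodium channel Nav1.9, one of -0.97 (edgeR adjusted p = 3.94e-06). Gfra2, the neurturin receptor of these neurons, had -0.09 and did not pass. The part of these genes in the P2rx3 values was not tested.

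P2rx5, a channel subunit found in large sensory neurons, stood at 28.5 ± 2.07 CPM in naive, 29.8 ± 3.92 in sham and 28.9 ± 1.496 in SCI (SD, n = 3). Its groups overlapped, and all 3 log2 changes lay between -0.05 and 0.07. P2rx6, whose subunit works mainly in heteromers with P2X2 or P2X4, stood at 39.2, 39.0 and 38.2 CPM in naive, 55.5, 42.9 and 37.2 in sham, and 43.5, 44.0 and 43.8 in SCI libraries 1 to 3. Every SCI library lay above every naive library, while the sham libraries spread over both. The log2 change of SCI against naive was 0.17 (SE 0.11, edgeR adjusted p = 0.206), and it passed when only these groups entered the fit (log2 change 0.17, edgeR adjusted p = 0.00986). Sham against naive had 0.23 (SE 0.11, edgeR adjusted p = 0.103), which ranged from 0.04 without sham 1 (edgeR adjusted p = 0.713) to 0.36 without sham 3 (edgeR adjusted p = 0.00269).

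Skeletal muscle also expresses P2rx6. Of 11 measured muscle genes, 8 were higher in sham than in naive and none lower, while 2 were lower in SCI than in naive and none higher. These 2 overlapped between SCI and naive. Of all genes tested, 50.6% were called in sham against naive (24.7% higher, 25.9% lower) and 48.5% in SCI against naive (23.9% higher, 24.6% lower). Between SCI and sham no muscle gene was called. All 11 were lower in SCI without overlap (median log2 change -0.985), where this held for 3.11% of all genes. The summed level of the muscle genes was 65.3 to 106 CPM in naive, 139 to 159 in sham and 64.8 to 102 in SCI, and none was at 0. Sham 1 and sham 3, the highest and the lowest library for P2rx6, held 157 and 139 CPM of muscle genes, and sham 2, between them for P2rx6, held the most at 159. The part of muscle RNA in the P2rx6 values was not tested.

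P2rx4 (ENSRNOG00000001300), a calcium-permeable channel of macrophages, glia and neurons, stood at 27.9, 26.6 and 29.2 CPM in naive libraries 1 to 3. It stood at 33.4, 31.5 and 38.0 CPM in sham and 33.6, 38.8 and 34.3 in SCI. All 6 operated libraries lay above the highest naive library. P2rx4 rose in SCI (35.6 ± 2.82 against 27.9 ± 1.30 CPM, a log2 change of 0.35 with SE 0.08, edgeR adjusted p = 0.00404). It rose by a log2 change of 0.30 in sham (SE 0.09, edgeR adjusted p = 0.0102). Between SCI and sham the log2 change was 0.05 (95% interval -0.13 to 0.23). Camkk2, a calcium-dependent kinase gene, overlaps P2rx4 in the RefSeq table, and the library kit does not mark strand. Camkk2 was higher as well, with a log2 change of 0.38 in SCI against naive (edgeR adjusted p = 0.00300) and 0.43 in sham (edgeR adjusted p = 0.00126). Reads from a stretch that both genes share cannot be told apart by strand, and the size of that stretch was not measured.

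P2rx7 (ENSRNOG00000001296), a channel that opens at high ATP and is known for triggering interleukin-1β release, stood at 34.4, 38.2 and 44.3 CPM in naive libraries 1 to 3. It stood at 21.5, 22.5 and 30.0 CPM in sham and 27.9, 25.5 and 24.2 in SCI. The lowest naive library lay above the highest operated one, which was sham 3. P2rx7 fell in SCI (25.9 ± 1.89 against 38.9 ± 5.01 CPM, a log2 change of -0.59 with SE 0.12, edgeR adjusted p = 0.00146). It fell in sham by 0.66 on the log2 scale (SE 0.12, edgeR adjusted p = 0.000610). SCI against sham had a log2 change of 0.08 (95% interval -0.20 to 0.35). No gene in the RefSeq table overlaps P2rx7.

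The count ratio of the neighbours P2rx4 and P2rx7 set them against each other within each library. It was 0.811, 0.698 and 0.660 in naive, 1.55, 1.40 and 1.27 in sham, and 1.2, 1.52 and 1.42 in SCI libraries 1 to 3. Every operated library had a higher ratio than every naive one. The mean log2 ratio was higher by 0.93 in SCI and by 0.96 in sham than in naive. Since the pair was chosen for its opposite changes, this is a description with no test. SCI and sham overlapped.

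**Figure D2:**
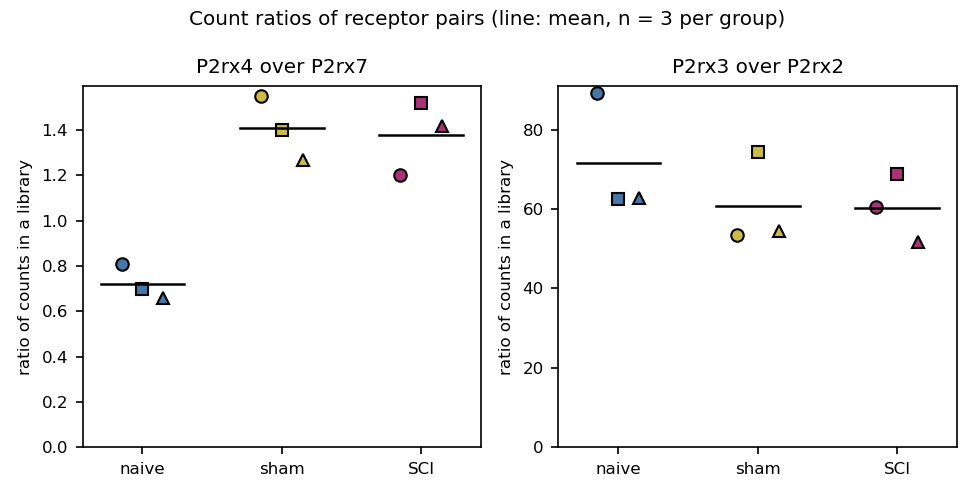
Ratio of counts in each library on the y axis, from 0, for P2rx4 over P2rx7 and for P2rx3 over P2rx2, by group on the x axis (symbols are replicates 1 to 3 as circle, square and triangle, lines are means, n = 3). The P2rx4 to P2rx7 ratio lies at 0.811 or below in naive libraries and at 1.2 or above in all others, while the P2rx3 to P2rx2 ratio overlaps between groups.

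P2ry1 (ENSRNOG00000014232), an ADP receptor that couples to calcium release, stood at 55.3, 61.5 and 58.2 CPM in naive libraries 1 to 3. It stood at 35.9, 39.3 and 29.3 CPM in sham and 35.9, 31.7 and 32.0 in SCI. Each operated library lay below each naive one by a wide margin, and sham 3 was the lowest. P2ry1 fell in SCI (33.2 ± 2.33 against 58.3 ± 3.10 CPM, a log2 change of -0.81 with SE 0.10, edgeR adjusted p = 2.05e-05). It fell in sham by 0.75 on the log2 scale (SE 0.10, edgeR adjusted p = 3.30e-05). SCI against sham had -0.06 (95% interval -0.27 to 0.15). No gene overlaps P2ry1 in the RefSeq table.

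P2ry2 (ENSRNOG00000019283), a receptor for ATP and UTP, stood at 30.5, 27.4 and 29.7 CPM in naive, 18.8, 18.5 and 19.1 in sham, and 19.5, 18.1 and 17.8 in SCI libraries 1 to 3. Libraries within a group lay close together, and naive did not overlap with the others. P2ry2 fell in SCI (18.5 ± 0.936 against 29.2 ± 1.62 CPM, a log2 change of -0.66 with SE 0.07, edgeR adjusted p = 1.41e-05). It fell in sham by 0.63 on the log2 scale (SE 0.07, edgeR adjusted p = 1.56e-05). SCI against sham had -0.02 (95% interval -0.19 to 0.14). Fchsd2, an endocytic adaptor gene that overlaps P2ry2, was lower too, with log2 changes of -0.30 in SCI (edgeR adjusted p = 0.00410) and -0.36 in sham (edgeR adjusted p = 0.00111), both against naive.

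P2ry12, the ADP receptor that clopidogrel blocks on platelets and a marker of microglia in the brain, stood at 4.02, 3.21 and 3.50 CPM in naive, 2.79, 3.51 and 4.27 in sham, and 4.11, 3.91 and 3.50 in SCI libraries 1 to 3. These values rest on 59 to 133 counts a library, and the groups overlapped. The log2 change was 0.11 for SCI against naive (SE 0.16, edgeR adjusted p = 0.601), -0.03 for sham against naive (SE 0.17, edgeR adjusted p = 0.882) and 0.15 for SCI against sham (95% interval -0.23 to 0.52). In the RefSeq table P2ry12 overlaps Med12l, a Mediator subunit gene, which was lower in SCI than in naive (log2 change -0.62, edgeR adjusted p = 0.00105). Reads from Med12l may be counted to P2ry12, since strand is not marked.

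**Figure D3:**
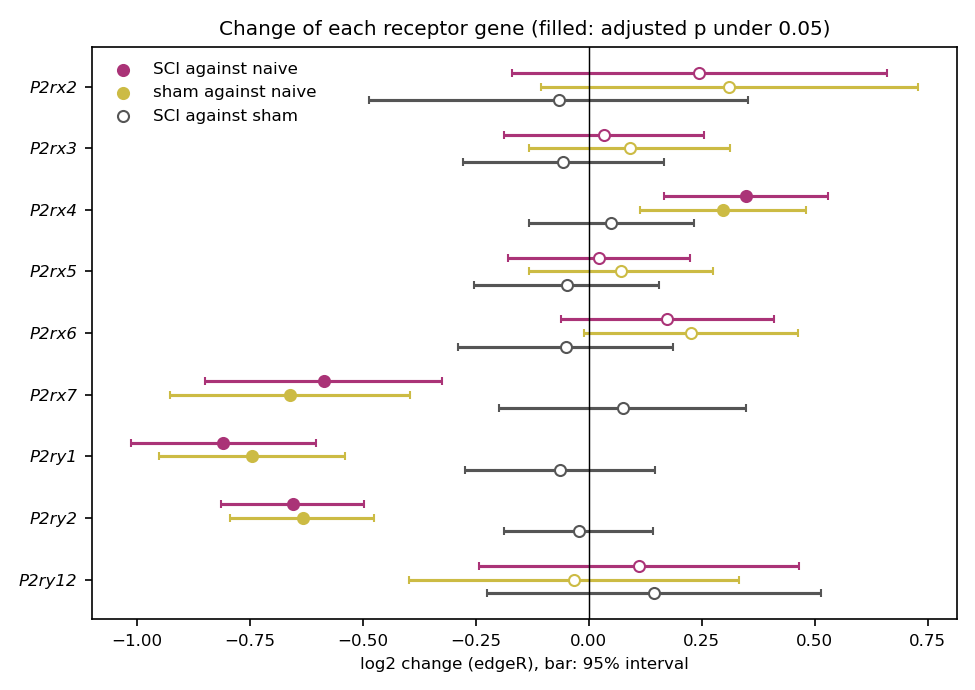
Log2 change of each receptor gene on the x axis with its 95% interval from edgeR, for SCI against naive, sham against naive and SCI against sham (filled circles have an adjusted p under 0.05). P2rx4 lies to the right and P2rx7, P2ry1 and P2ry2 to the left in both comparisons with naive, and all 9 intervals of SCI against sham include 0.

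Against the whole table, the share of receptor genes called was near the background. In SCI against naive 4 of 9 were called (44.4%), 1 higher and 3 lower, where 48.5% of all genes tested were called (23.9% higher, 24.6% lower). In sham against naive 4 of 9 were called, again 1 higher and 3 lower, against 50.6% of all genes (24.7% higher, 25.9% lower). The groups did not overlap for 5 of 9 in SCI against naive, 2 higher and 3 lower, where this held for 64.1% of all genes (32.2% higher, 31.9% lower). They did not overlap for 4 of 9 in sham against naive, 1 higher and 3 lower, where this held for 56.7% (27.5% higher, 29.2% lower). Both comparisons share the naive libraries, so their like direction is not a second measurement. The median log2 change of the 9 was 0.03 in SCI against naive and 0.07 in sham against naive, beside 0.01 and 0.00 over all genes tested.

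Between SCI and sham 0 of 9 receptor genes and 0 of 16627 genes (0%) were called by edgeR, with 526 genes at an unadjusted p under 0.05. DESeq2 called 9 genes and none of the receptors, limma-voom called 0, and without sham 3 edgeR called 22. The smallest unadjusted p among the receptors was 0.414, for P2ry12. Their SCI and sham libraries overlapped in all 9 cases, where 6.41% of all genes did not overlap (3.3% higher in SCI, 3.11% lower). The median log2 change of the 9 was -0.05, beside 0.00 over all genes. The widest 95% interval was that of P2rx2, and the narrowest was that of P2ry2.

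Markers of glia and immune cells also differed from naive. For all lists of this paragraph, the counts stand beside the share of all genes called. That share was 48.5% in SCI against naive (23.9% higher, 24.6% lower) and 50.6% in sham against naive (24.7% higher, 25.9% lower). Of 10 listed Schwann cell myelin genes 9 were lower in SCI and 9 in sham, and their summed level was 30300 to 32000 CPM in naive, 17600 to 22000 in sham and 19100 to 23200 in SCI. Of 10 satellite glia genes 3 were higher and 2 lower in SCI, and 3 were higher and 3 lower in sham. Their sum was 5100 to 5150 CPM in naive, 7560 to 9850 in sham and 7570 to 8710 in SCI, most of it Apoe, a lipid carrier that macrophages also make. Of 15 macrophage and microglia genes 9 were higher and 1 lower in SCI, and 8 were higher and 1 lower in sham, with sums of 199 to 231 CPM in naive, 232 to 372 in sham and 284 to 299 in SCI. Csf1r, the receptor that macrophages need to survive, had a log2 change of 0.35 in SCI against naive (edgeR adjusted p = 0.0487). Cd163, the 1 lower gene, had -0.375 (edgeR adjusted p = 0.0186). Itgam and Mrc1 had -0.312 and -0.221 and did not pass. Of 6 tested endothelial genes 2 were higher and 2 lower in each comparison, and of 8 pericyte and smooth muscle genes 5 were higher in SCI and 7 in sham and none lower. No listed marker of Schwann cells, satellite glia or macrophages was at 0 in a group. The part of these cells in the values of P2rx4, P2rx7, P2ry1, P2ry2 and P2ry12, and of P2rx1 and P2ry13 among the other receptors, was not tested.

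**Figure D4:**
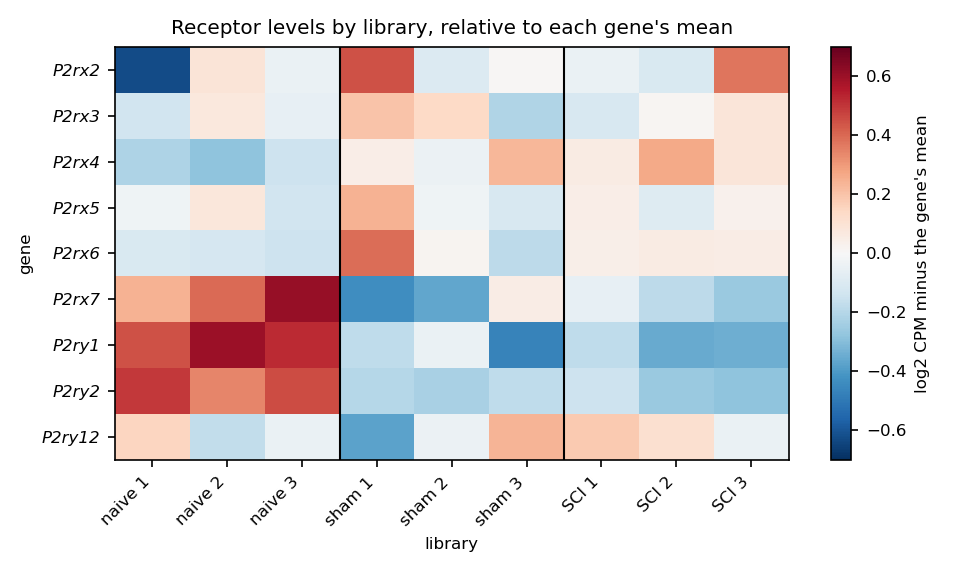
Log2 CPM of each receptor gene (y axis) in each library (x axis) minus the gene's mean over the 9 libraries, as colour, with lines between the groups. Sham 1 is above sham 3 for P2rx3, P2rx5 and P2rx6 and below it for P2rx7 and P2ry12.

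Several receptors differed between sham 1 and sham 3. Sham 1 held the highest sham level of P2rx2, P2rx3, P2rx5 and P2rx6 and the lowest of P2rx7 and P2ry12. Sham 3 held the lowest of P2rx3, P2rx5, P2rx6 and P2ry1 and the highest of P2rx4, P2rx7, P2ry2 and P2ry12. The summed neuronal markers were 14700 CPM in sham 1 and 11200 in sham 3, while those of satellite glia were 7560 and 9850 and those of macrophages 232 and 372. As a description over deviations from group means in all 9 libraries, Pearson's r of the 36 receptor pairs ran from -0.92 to 0.83. It was 0.83 for P2rx5 with P2rx6, 0.71 for P2rx3 with P2rx6 and -0.92 for P2rx3 with P2ry12, but -0.02 for P2rx2 with P2rx7 and -0.08 for P2rx6 with P2ry2. The points share library and depth, and the cause of the spread in sham was not tested.

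Across the 9 libraries, the genes with the pattern most like each receptor were named by Pearson's r of log2 CPM. For P2ry1 these were Ube3a (0.995), Arhgap5 (0.992) and Zfp248 (0.992). For P2ry2 they were Papss1 (0.995), Lpl (0.992) and Has2 (0.992), and for P2rx7 Ctdspl (0.990), Kmt2e (0.987) and Zc3h13 (0.985). P2rx4 was most like Lrfn4 (0.995), Ehmt2 (0.975) and Paf1 (0.975). P2rx6 was most like Ngfr (0.989), the low-affinity neurotrophin receptor, Cpne6 (0.986) and Slc25a12 (0.985). P2rx3 was most like Cops3 (0.962), Ttc39c (0.956) and Scn3b (0.953), a sodium channel beta subunit, and after group means were removed r with Scn3b was 0.984. The likeness was lower for P2rx5 (Atp8b3, 0.925, Ankrd34a, 0.920, and Chpf2, 0.913) and for P2rx2 (Gnl2, 0.932, Pvrl1, 0.927, and Rsu1, 0.903). P2ry12 was most like Epha2 (0.968), Cpsf4 (0.959) and Card14 (0.953). These values mix differences between groups with the spread within groups. Each named gene was picked for its high r from among many genes over only 9 libraries, so picking alone can give a high r. The r that such picking gives by chance was not tested, so the values are a description only. With group means removed, r was 0.995 for P2rx6 with Ngfr and 0.969 for P2ry12 with Epha2, and 0.867 for P2ry2 with Papss1 and 0.828 with Lpl. It was then 0.954 for P2rx5 with Atp8b3 and 0.914 for P2rx2 with Gnl2, so the order given above did not hold.

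Among the other nucleotide receptors, 6 genes were tested. P2ry4, a receptor for UTP, stood at 1.05, 0.693 and 0.900 CPM in naive, 0.147, 0.119 and 0.298 in sham, and 0.216, 0.247 and 0.409 in SCI libraries 1 to 3. Naive did not overlap with the others, on 22 to 29 counts in naive and 2 to 9 in the rest. It fell in SCI by 1.61 on the log2 scale (SE 0.34, edgeR adjusted p = 0.00156) and in sham by 2.20 (edgeR adjusted p = 0.000380). P2ry13, an ADP receptor of myeloid cells, rose in SCI (log2 change 0.94, edgeR adjusted p = 0.0152), with 0.45 in sham (edgeR adjusted p = 0.245). P2rx1, the channel of smooth muscle and platelets, rose in SCI (log2 change 0.66, edgeR adjusted p = 0.0293), with 0.59 in sham (edgeR adjusted p = 0.0530). P2ry6, a UDP receptor, had 0.47 in SCI against naive and did not pass (edgeR adjusted p = 0.0819), but passed with no low-count filter (0.046) and with only the groups compared (0.0149). In sham P2ry6 passed without sham 1 (0.0106). P2ry10 fell in sham (log2 change -1.13, edgeR adjusted p = 0.0117) and had -0.22 in SCI against naive (edgeR adjusted p = 0.532), and P2ry14, a receptor for UDP-glucose, had -0.34 in SCI and -0.06 in sham and did not pass. In all, 2 rose and 1 fell in SCI, and 0 rose and 2 fell in sham, with medians of 0.12 and 0.17. For this and the other purinergic lists, the counts stand beside the shares of all genes called. These were 48.5% in SCI against naive (23.9% higher, 24.6% lower) and 50.6% in sham against naive (24.7% higher, 25.9% lower). The medians over all genes were 0.01 and 0.00. The call of P2ry13 was lost without naive 2, naive 3 or SCI 2 (edgeR adjusted p = 0.0516, 0.0522 and 0.0674). That of P2rx1 was lost with DESeq2 (adjusted p = 0.0614), without any 1 naive library (edgeR adjusted p = 0.0574, 0.101 and 0.0517), without SCI 1 (0.161) and without SCI 3 (0.0580). In sham P2rx1 passed with RLE scaling (0.0499), the strict filter (0.0478) and without sham 1 (0.018). The sham call of P2ry10 was lost without naive 1 (edgeR adjusted p = 0.0511).

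The adenosine receptors stand downstream, since ATP outside cells is broken down to adenosine. Adora1, the inhibitory A1 receptor of nociceptors, stood at 61.2 ± 2.96 CPM in naive, 80.3 ± 14.1 in sham and 78.5 ± 3.46 in SCI (SD, n = 3). It rose by a log2 change of 0.36 in SCI (SE 0.10, edgeR adjusted p = 0.0110) and 0.39 in sham (edgeR adjusted p = 0.00606). Adora2a rose by 0.30 in SCI (edgeR adjusted p = 0.0378) and 0.37 in sham (edgeR adjusted p = 0.0141), while Adora2b had 0.24 and 0.23 and did not pass, except in SCI without SCI 1 (edgeR adjusted p = 0.0447). Of 3 genes tested, 2 thus rose in each comparison, with medians of 0.30 and 0.37. Both rows of Adora3 were at 0 counts in every library. The SCI call of Adora1 was lost without naive 1 (edgeR adjusted p = 0.0502). That of Adora2a was lost without naive 1, naive 2 or any 1 SCI library (edgeR adjusted p from 0.0520 to 0.156) and with the replicate number as a block (0.0545). Its sham call was lost without naive 1 (0.0663) or sham 1 (0.0735).

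Of 9 tested enzymes that break down nucleotides outside cells, 1 was higher and 4 were lower in both comparisons, with medians of -0.26 in SCI and -0.24 in sham. Enpp1, which cleaves ATP to AMP, fell to 17.9 ± 1.39 CPM with SCI and 17.1 ± 2.73 with sham operation, against 29.3 ± 1.84 in naive ganglia (log2 changes -0.71 and -0.78, edgeR adjusted p = 0.000141 and 5.98e-05). Enpp2, a relative best known as autotaxin, which makes lysophosphatidic acid, had -0.76 and -0.72 (edgeR adjusted p = 5.82e-05 and 8.03e-05). Nt5e, which turns AMP into adenosine, fell in SCI to 10.7 ± 0.630 CPM against 14.8 ± 1.17 in naive (log2 change -0.47, edgeR adjusted p = 0.00533). The fourth lower gene, Acpp, the acid phosphatase of nonpeptidergic nociceptors, had -0.31 in SCI and -0.30 in sham (edgeR adjusted p = 0.0207 and 0.0246). Its SCI call was lost without naive 2, naive 3, SCI 1 or SCI 2 (edgeR adjusted p from 0.0578 to 0.102), and its sham call without naive 2, naive 3, sham 2 or sham 3 (from 0.0582 to 0.0745). Alpl, tissue-nonspecific alkaline phosphatase, rose in SCI to 49.7 ± 1.66 CPM against 35.4 ± 3.24 in naive (log2 change 0.49, edgeR adjusted p = 0.00151). Entpd2 and Entpd3, ectonucleotidases of glia and of neurons, had log2 changes of -0.10 and -0.21 in SCI against naive and did not pass. Entpd8 did not pass the low-count filter.

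Of 12 tested genes linked to ATP release, 2 were higher and 3 lower in SCI than in naive, and 2 were higher and 2 lower in sham, with medians of 0.07 and 0.08. Panx2, a neuronal pannexin, stood at 83.2, 82.2 and 87.6 CPM in naive, 161, 132 and 132 in sham, and 128, 130.3 and 130.4 in SCI libraries 1 to 3. Naive did not overlap with the others, and sham 1 was the highest. It rose in SCI (a log2 change of 0.62 with SE 0.08, edgeR adjusted p = 3.47e-05) and in sham (0.75, edgeR adjusted p = 6.55e-06). Panx1, the pannexin best known for ATP release, had 0.09 and 0.12 and did not pass. The 5 subunits of the volume-regulated anion channel did not change alike. Lrrc8a, the obligate subunit, rose (0.37 in SCI, edgeR adjusted p = 0.00137), while its partners Lrrc8b and Lrrc8c fell (-0.38 and -0.49, edgeR adjusted p = 0.00208 and 0.000861), all against naive. Lrrc8d and Lrrc8e had 0.01 and 0.003 (edgeR adjusted p = 0.879 and 0.989). Panx3 fell in SCI from 1.201 to 0.677 CPM (log2 change -0.90, edgeR adjusted p = 0.0284), with -0.61 in sham (edgeR adjusted p = 0.118). The SCI call of Panx3 was lost with DESeq2 (adjusted p = 0.0527) and without naive 1, naive 2 or SCI 1 (edgeR adjusted p = 0.0533, 0.117 and 0.164). Slc17a9, the vesicular nucleotide transporter, had 0.55 in SCI at about 1 CPM and did not pass, and Calhm1 did not pass the low-count filter.

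Of 6 tested genes that take up or convert adenosine, 3 were higher and none lower in both comparisons, with medians of 0.11 in SCI and 0.14 in sham. Ada, adenosine deaminase, rose to 13.9 ± 0.815 CPM with SCI and 14.02 ± 1.69 with sham operation, against 9.78 ± 0.797 in naive ganglia (log2 changes 0.51 and 0.53, edgeR adjusted p = 0.00163 and 0.00116). Slc29a4, a membrane transporter of monoamines and adenosine, rose by 0.40 and 0.46 (edgeR adjusted p = 0.0123 and 0.00543). Pnp, purine nucleoside phosphorylase, rose by 0.23 and 0.27 (edgeR adjusted p = 0.0487 and 0.0244). Adk, adenosine kinase, had -0.07 and 0.01 and did not pass, and Slc29a2 was at 0 counts in every library. The SCI call of Slc29a4 was lost without naive 1, naive 3 or SCI 2 (edgeR adjusted p = 0.0574, 0.0532 and 0.05). That of Pnp was lost with limma-voom (0.0507), with the strict filter (0.0517), without any 1 naive library, and without SCI 1 or SCI 3 (edgeR adjusted p from 0.0725 to 0.166). The sham call of Pnp was lost without naive 1, naive 2, sham 2 or sham 3 (edgeR adjusted p from 0.0506 to 0.0877). None of the genes in these 5 lists was called between SCI and sham.

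**Figure D5:**
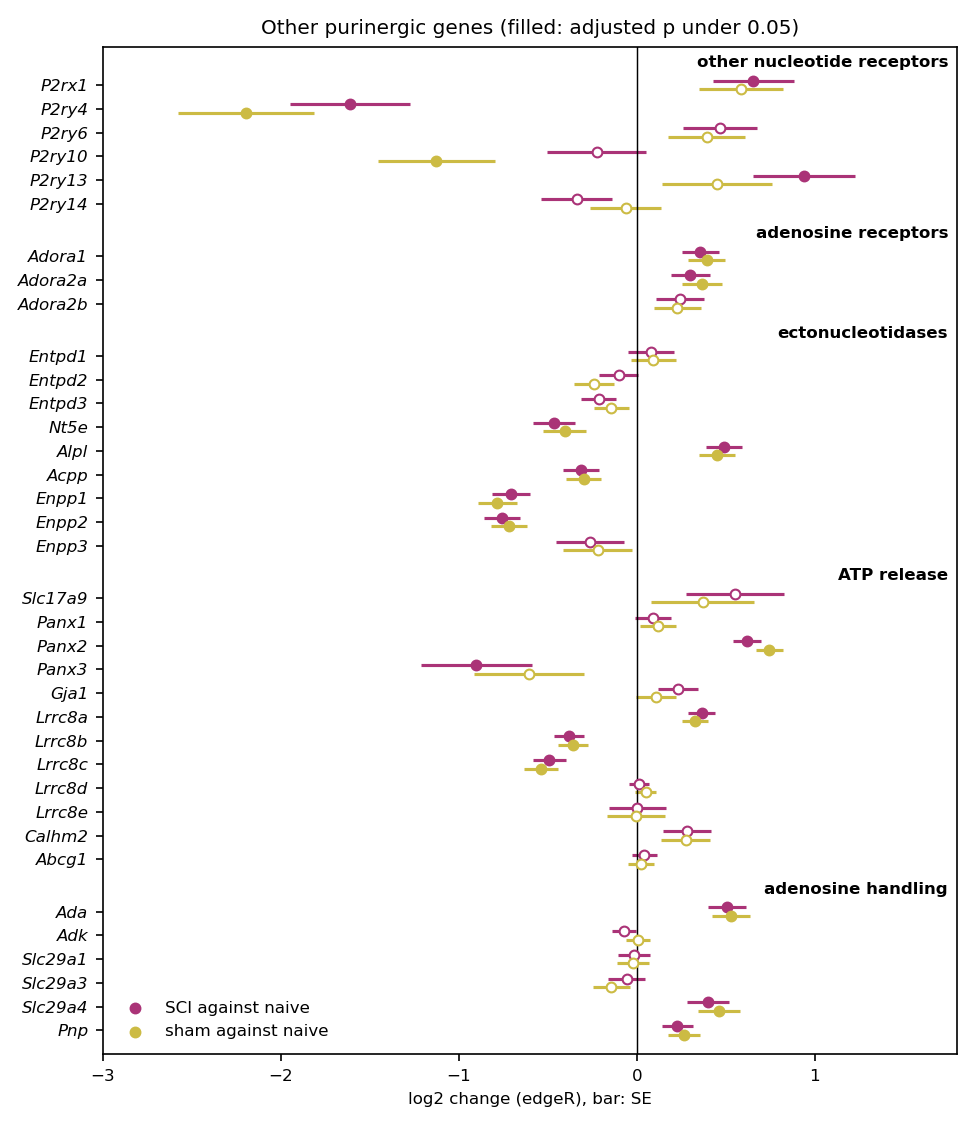
Log2 change (x axis, bars are SE from edgeR) of the 36 tested genes of 5 purinergic lists against naive, for SCI and for sham (filled circles have an adjusted p under 0.05). P2ry4 lies farthest to the left in both comparisons, at -1.61 and -2.20, and the adenosine receptors lie to the right.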

How the data were processed

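Messenger RNA of dorsal root ganglia was sequenced in 9 rat libraries, grouped by their titles into naive, sham and SCI, with 3 in each. Per the labels' protocols, the RNeasy Mini Kit was used for RNA. Paired-end sequencing used the TruSeq RNA Sample Prep Kit V2. That kit leaves strand unmarked. The submitters' processing notes name FastQC, Trimmomatic, TopHat2, HTSeq and DESeq2. For tool versions, build and gene models, nothing is given in the sources used here. The deposited table holds the authors' raw counts per gene, whole numbers without normalization, and every count column was used.

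Differences were tested with edgeR's quasi-likelihood method (version 4.0.16, R 4.3.3) on all 9 libraries, with TMM scaling, filterByExpr, a mean for each group and 6 residual degrees of freedom. Benjamini-Hochberg adjustment ran over 16627 genes. Calls have an adjusted p under 0.05. CPM use TMM-scaled library sizes, and log2 CPM a prior count of 2. Standard errors and 95% intervals come from that fit. The square root of the common dispersion was 0.0805. Since nothing ties a library to single animals, p-values measure the spread between libraries, which may be partly technical. Alternatives were RLE scaling, a strict or no filter, limma-voom (limma 3.58.1), DESeq2 (version 1.42.0), fits to the compared groups alone, a block for the replicate number, and each library left out. The fit was tested on simulated data.

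The receptors and all gene lists were chosen with earlier results of these data known. Named were the 9 receptors, up to 4 tested genes of smallest p for SCI against naive from each of the 5 purinergic lists, genes not detected, up to 3 markers of highest CPM in a list, and for each receptor the 3 genes of highest correlation. Other list members and overlapping genes were picked for naming once their values were known. Overlap of genes was read by name from RefSeq's GRCr8 table. The values of 1 marker gene are not reported here. Libraries of a group differed by more than sampling noise (chi-square per degree of freedom 3.01 to 39.1).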

Additional observations from a re-analysis of the deposited data

How the results depend on the processing

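Of the 9 receptors, P2rx4, P2rx7, P2ry1 and P2ry2 were called in both comparisons with naive under all 14 settings, the main one included. The number of receptors called differed from the main 4, 4 and 0 in 2 cases: 5 for SCI against naive with only the groups compared (P2rx6 added), and 6 for sham against naive without sham 3 (P2rx3 and P2rx6 added). Over all genes, SCI against sham had 0 calls in the main fit, 9 with DESeq2 (3 higher, 6 lower), 11 with no low-count filter (4 higher, 7 lower), and 0 to 22 when each library was left out, the 22 without sham 3. The cause was not tested. Leaving out 1 library also turned the sign of changes that were not called. For SCI against sham the log2 change ran from -0.228 to 0.125 for P2rx2, -0.176 to 0.02 for P2rx3, -0.016 to 0.123 for P2rx4, -0.128 to 0.068 for P2rx5, -0.182 to 0.13 for P2rx6, -0.024 to 0.238 for P2rx7, -0.173 to 0.024 for P2ry1, -0.067 to 0.005 for P2ry2 and -0.02 to 0.311 for P2ry12. For SCI against naive it ran from -0.015 to 0.093 for P2rx3, -0.039 to 0.077 for P2rx5 and -0.435 to 0.029 for P2ry10. For sham against naive it ran from -0.055 to 0.153 for P2rx5, -0.195 to 0.124 for P2ry12 and -0.04 to 0.061 for Adk. Same-numbered libraries deviated together little (correlations -0.095 to 0.124), and not every library correlated best with its own number. With 3 libraries a group, these correlations cannot show whether equal numbers mark shared handling. With the replicate number as a block, 7848 genes were called for SCI against naive, 8153 for sham against naive and 0 for SCI against sham, with 4, 4 and 0 of the receptors. The alternatives for genes other than the receptors were chosen after seeing the data. Some values rest on few counts a library: 2 to 29 for P2ry4, 6 to 27 for P2ry10, 12 to 47 for Panx3, 17 to 47 for P2ry13, 26 to 63 for P2rx1 and, among the receptors described, 59 to 133 for P2ry12.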
